A study of Homo sapiens with 9 samples.

Results

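MDA-MB-231 is an established human breast adenocarcinoma line of the triple-negative kind, named for the lack of estrogen receptor, progesterone receptor and HER2 amplification. The 3 libraries described here came from MDA-MB-231 cells infected with a lentivirus that carried the empty pLVX vector, and they are all the libraries of that kind among the 9 of the series. The remaining 6 libraries, of cells with added wild-type or mutant MEL-18 (the protein of PCGF2), were not analysed here, and no contrast with them was made. The cells had been grown in DMEM with 10% FBS for 48 h before total RNA was taken, so the libraries share the medium, the time and the vector. The series calls the 3 cultures biological replicates. Whether they came from separate infections is not given in the sources used here, so the spread between them may be partly technical.

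Genes were ranked by mean CPM, the number of reads counted in a gene per 1000000 reads counted in all genes of the library. Breast cancer lines are commonly sorted by lineage programs. Luminal lines resemble the hormone-responsive cells that line the duct, with GATA3, FOXA1, keratins 8, 18 and 19 and E-cadherin. Basal lines carry keratins 5 and 14. Lines of the claudin-low or basal B kind, to which MDA-MB-231 is usually assigned, have lost much of the epithelial junction program and carry vimentin, CD44 and a mesenchymal surface. Polycomb proteins work in several complexes. PRC1 places ubiquitin on histone H2A and PRC2 methylates lysine on histone H3, and together they keep developmental genes such as the HOX clusters silent in cells that do not use them.

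The libraries held between 31643722 and 34033059 counts over 26364 gene symbols, and a single library detected 18956 to 18973 of them. A gene was called expressed at 1 CPM or more in each of the 3 libraries, which is 31.6 to 34.0 counts. By this rule 12538 genes were expressed, 47.6% of all genes, and they held 99.8% of the counts. A gene was called silent below 0.1 CPM in each library, which is 3.16 to 3.40 counts, and 9773 genes (37.1%) were silent. Of these, 5397 (20.5% of all genes) had 0 counts in all 3 libraries. A count of 0 over the pooled libraries allows up to 0.0303 CPM, or 3 counts of the pooled total, and this limit covers counting error only. The other 4053 genes lay in between and are called intermediate. A level of 100 CPM or more in each library was reached by 2481 genes (9.41%), which held 68.9% of the counts. Among genes annotated as protein-coding, 11697 of 19080 (61.3%) were expressed and 4863 (25.5%) silent, with a median of 8.71 CPM against 0.711 CPM over all genes. By contrast, 125 of 1109 lincRNA genes (11.3%) and 169 of 919 antisense genes (18.4%) were expressed. The library was made from poly(A) RNA, and the strand setting of the counting is not given in the sources used here, so antisense counts are uncertain. Most members of the lists below are protein-coding, so their counts are to be read beside the 61.3% expressed and 25.5% silent of such genes.

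**Figure D1:**
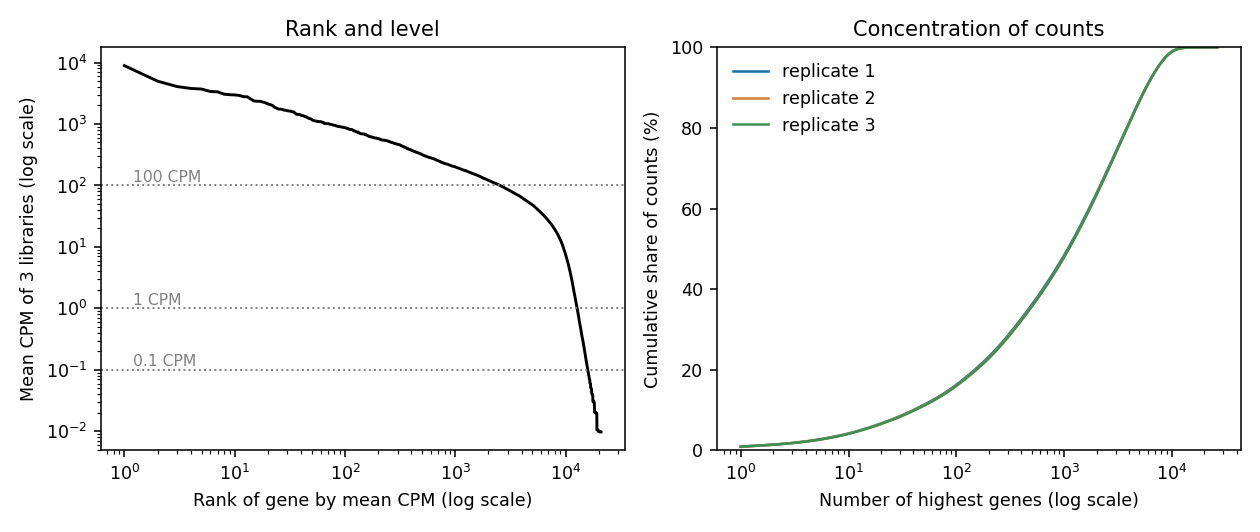
The left panel plots mean CPM (log scale) against rank (log scale) for every gene with a count, with the thresholds of 100, 1 and 0.1 CPM as dotted lines. The right panel plots the cumulative share of counts in percent against the number of highest genes (log scale) for replicates 1, 2 and 3, whose curves overlie each other.

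Counts were spread over many genes. The 10 highest genes of a library held 4.07% to 4.16% of its counts, the 30 highest 8.28% to 8.47%, the 100 highest 16.0% to 16.3% and the 1000 highest 47.9% to 48.4%. EEF1A1, the factor that brings aminoacyl-tRNA to the ribosome, ranked first with 8959.5, 8854 and 8825 CPM in replicates 1, 2 and 3. GAPDH followed at 4968 ± 94.9 CPM (mean ± SD, n = 3, as for every ± below) and the cytoskeletal actin ACTB at 4062 ± 70.9 CPM. Chaperones (HSPA8 at 3785 ± 123 CPM, HSP90AA1 at 3379 ± 88.3 CPM and HSP90AB1 at 2122 ± 15.2 CPM), glycolytic enzymes (ENO1 at 2994 ± 44.5 CPM, PKM at 2912 ± 18.3 CPM and LDHA at 2544 ± 33.1 CPM) and nucleolar proteins (NPM1 at 3701 ± 161 CPM and NCL at 1674 ± 87.3 CPM) made up much of the rest of the 30 highest, with 5 ribosomal protein genes. CYR61, the gene of a secreted matricellular protein, ranked 15 at 2367 ± 63.6 CPM. AHNAK at 3058 ± 126 CPM, FLNA at 2209.9 ± 44.8 CPM and PLEC at 1722 ± 51.2 CPM are very long transcripts for large scaffold proteins of the cell cortex and cytoskeleton.

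CPM does not correct for transcript length. Levels were therefore also expressed per kilobase of annotated exons and scaled to a sum of 1000000 over the 22193 genes that had at least 200 exon bases (TPM-like, written TPM below), and ratios between genes are given only on that scale. The length of a gene is the union of exons over its listed transcripts. The transcripts used in these cells may be shorter, so ratios between genes carry an error of length that their SD leaves out. A rank by CPM is named as such. Per length, 16 of the 30 genes highest by CPM stayed among the 30 highest. AHNAK moved from rank 8 by CPM to rank 253 per length (491 TPM), and PLEC to rank 468 (324 TPM). RPS18, the gene of a small ribosomal protein, stood first per length at 8264 ± 255 TPM, followed by GAPDH at 6907 ± 91.7 TPM.

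The 6 genes that mark the line were read first, as a check of the label. VIM, the intermediate filament of mesenchymal cells, had 1450.1, 1415 and 1416 CPM in replicates 1, 2 and 3 and ranked 38. AXL, a receptor tyrosine kinase of the TAM family, had 998, 1018 and 979 CPM and ranked 72. EGFR, the epidermal growth factor receptor, had 404, 423 and 424 CPM, and CD44, the hyaluronan receptor, had 353, 340.1 and 341 CPM. These 4 genes were all above 300 CPM in every library and differed between the lowest and the highest library by a few percent. ESR1, the estrogen receptor, had 3, 0 and 3 counts, and CDH1, the gene of E-cadherin, had 9, 0 and 0 counts. ESR1 was thus silent, while CDH1 was intermediate only through replicate 1, where its counts equal 0.269 CPM. In bulk RNA a low level in every cell and a higher level in few cells cannot be told apart. The labelled cell type is epithelial, and the simple keratins KRT8 at 294, 306 and 304 CPM and KRT18 at 286, 300.3 and 299 CPM were present in every library. Per length, VIM at 2363 ± 19.7 TPM stood 5.20 ± 0.213 times above KRT18 at 455 ± 14.7 TPM. Of the annotated exon bases of VIM, 52.6% are shared with genes on the opposite strand, VIM-AS1 among them. The effect of the counting of shared exons was not tested, so the VIM level and this ratio are uncertain.

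Of 16 markers of claudin-low and basal B lines, 15 were expressed (93.8%), beside 61.3% of protein-coding genes. In every library 9 of them reached 100 CPM, a level that 9.41% of all genes reached. Besides the 4 above they included MSN, the membrane linker moesin, at 1054 ± 14.4 CPM, CAV1, the coat protein of caveolae, at 1019 ± 19.9 CPM, and ANXA1 at 687 ± 9.7 CPM. MET, the hepatocyte growth factor receptor, had 245 ± 8.01 CPM and the transcription factor gene ETS1 219.6 ± 3.12 CPM. The lowest expressed member was LAMB1 at 20.5 ± 0.564 CPM. The 1 silent member was CD70, a TNF family ligand, with 1, 1 and 3 counts. The list's median was 232 CPM, against 8.71 CPM over protein-coding genes and 0.711 CPM over all genes.

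Of 27 luminal marker genes, 16 were expressed (59.3%), 6 intermediate and 5 silent, close to the 61.3% of protein-coding genes expressed, with a median of 3.08 CPM. Next to KRT8 and KRT18, the members highest by CPM were KRT7 at 206 ± 2.99 CPM, XBP1, a transcription factor of secretory cells, at 97.6 ± 2.84 CPM, MLPH at 85.9 ± 4.97 CPM and KRT19 at 85.5 ± 4.39 CPM. Other luminal transcription factor genes were also expressed, SPDEF at 12.3 ± 1.01 CPM, FOXA1 at 9.97, 10.3 and 9.86 CPM in the 3 libraries and GATA3 at 6.48, 7.43 and 6.38 CPM. Of the secreted or surface mucosal products, MUC1 was expressed at 2.22 ± 0.196 CPM, and the trefoil factor genes TFF3 at 0.886 ± 0.116 CPM and TFF1 at 0.153 ± 0.0666 CPM were intermediate. EPCAM, an epithelial adhesion molecule, had 7.37 ± 0.275 CPM, and CD24 had 4.31 ± 0.531 CPM. Per length CD44 exceeded CD24 by 36.4 to 47.7 times in the 3 libraries. The splicing regulator genes ESRP1 at 0.58 ± 0.221 CPM and ESRP2 at 0.995 ± 0.147 CPM, which keep epithelial isoforms, were intermediate. The epithelial transcription factor genes GRHL2 (2, 0 and 0 counts), OVOL1 (0, 1 and 0 counts) and OVOL2 (0, 0 and 1 counts) were silent.

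**Figure D2:**
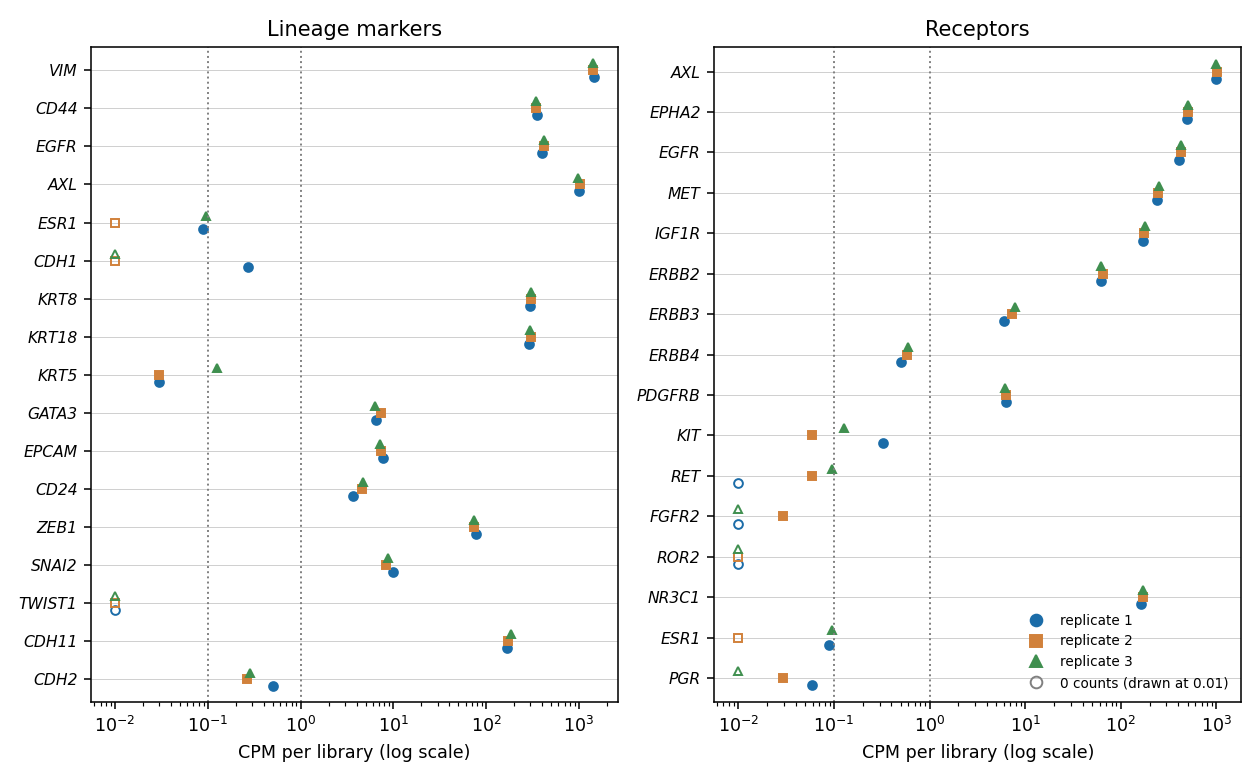
Each gene is a row with its CPM (log scale) in replicates 1, 2 and 3 as a circle, a square and a triangle; open symbols are 0 counts, drawn at 0.01, and dotted lines mark 0.1 and 1 CPM. Expressed genes such as VIM and AXL show symbols on top of each other, while ESR1, CDH1, PGR and RET have 9 or fewer counts in any library and scatter.

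Basal and myoepithelial markers gave 11 expressed, 8 intermediate and 7 silent of 26, with a median of 1.06 CPM. Those expressed were mostly genes of the basement membrane contact. LAMB3, a chain of laminin-332, had 466 ± 12.8 CPM, ITGA6 225 ± 10.8 CPM and its partner ITGB4 119 ± 7.81 CPM. The basal keratin genes KRT5 (1, 1 and 4 counts) and KRT14 (2, 0 and 5 counts) were near the limit of detection. KRT15, a keratin gene of the same list, was expressed, and its level is given below with the other keratins. TP63, the master regulator gene of basal cells, was expressed at 1.97, 1.88 and 1.93 CPM. SOX10 (2, 0 and 0 counts) and KRT6A (0, 0 and 2 counts) were silent.

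Of 15 transcription factor genes tied to epithelial-mesenchymal transition, 11 were expressed, 1 was intermediate and 3 were silent. FOSL1, an AP-1 subunit, had 217, 209 and 190.4 CPM. ZEB1, a repressor of CDH1, had 77.0, 74.6 and 73.6 CPM and its relative ZEB2 40.4, 40.3 and 40.0 CPM. Of the SNAIL family, SNAI2 had 10.0, 8.23 and 8.69 CPM and SNAI1 4.69, 4.41 and 3.95 CPM. Per length ZEB1 stood 4.54 ± 0.303 times above SNAI1, SNAI2 reached 0.316 ± 0.0261 of ZEB1, and ZEB2, at 9.32 ± 0.0341 TPM, lay between SNAI2 at 11.4 ± 1.11 TPM and SNAI1 at 7.97 ± 0.633 TPM. This order was the same in each library. TWIST1 and TWIST2 had 0 counts in all 3 libraries.

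Among 31 ERBB and nuclear hormone receptor genes, 22 were expressed, 5 intermediate and 4 silent. ERBB2, which encodes HER2, was expressed at 61.5, 64.8 and 62.4 CPM, and EGFR exceeded it 3.31 ± 0.0747 times per length. ERBB3 had 7.1 ± 0.943 CPM, and ERBB4 was intermediate at 0.565 ± 0.0503 CPM. The steroid receptor genes split. NR3C1, the glucocorticoid receptor, had 164, 171 and 171 CPM and NR3C2, the mineralocorticoid receptor, 24.1 ± 0.954 CPM. PGR, the progesterone receptor, had 2, 1 and 0 counts. The orphan receptor genes NR2F2 at 152 ± 8.84 CPM and NR2F1 at 142 ± 5.05 CPM, and the retinoid partner RXRA at 66.4 ± 1.42 CPM, were expressed, while RXRG had 0 counts in every library. ESR2, the second estrogen receptor gene, stood just above the threshold at 1.16, 1.38 and 1.23 CPM.

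Of 50 receptor tyrosine kinase genes, 26 were expressed (52.0%), 16 intermediate and 8 silent, with a median of 1.83 CPM. These receptors carry growth and guidance signals from the cell surface, and a cell type commonly uses a limited set. By CPM, AXL was followed by EPHA2, an ephrin receptor, at 492, 509 and 502 CPM, EGFR, MET at 238, 244 and 254 CPM and IGF1R, the insulin-like growth factor receptor, at 173, 176 and 179 CPM. Per length the order was AXL at 631 ± 11.6 TPM, EPHA2 at 391 ± 8.61 TPM, EGFR at 114 ± 3.83 TPM and MET at 113 ± 4.43 TPM, and the last pair differed by less than their SD. AXL exceeded EGFR 5.34 to 5.72 times per length. The other TAM receptors were lower, MERTK at 20.9 ± 0.77 TPM and TYRO3 at 9.52 ± 0.327 TPM. Both platelet-derived growth factor receptors, typical of stromal cells, were expressed at low level, PDGFRB at 6.23 ± 0.0634 CPM and PDGFRA at 4.29 ± 0.484 CPM. ROR1, a WNT5A receptor, had 72.2, 73.9 and 73.8 CPM, while its relative ROR2 had 0 counts in all 3 libraries. FGFR1 was expressed at 54.7 ± 1.14 CPM and FGFR2 had 0, 1 and 0 counts. RET (0, 2 and 3 counts), FLT1 (2, 0 and 1 counts), NTRK3 (2, 1 and 1 counts) and EPHB6 (0, 1 and 1 counts) were also silent.

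The stretches just upstream of the start of the 3 highest and the 3 lowest of these receptor genes by CPM are shown to set the CpG content of receptors at both ends of the list side by side. Each is the 250 bases before the first listed start in the RefSeq table for GRCh38.p14, 5′ to 3′ on the gene's strand, with CpG in capitals. AXL lies at chr19:41218973-41219222 (plus strand), EPHA2 at chr1:16156070-16156319 (minus), EGFR at chr7:55018767-55019016 (plus), EPHB6 at chr7:142862506-142862755 (plus), FGFR2 at chr10:121598445-121598694 (minus) and ROR2 at chr9:91950229-91950478 (minus).
AXL: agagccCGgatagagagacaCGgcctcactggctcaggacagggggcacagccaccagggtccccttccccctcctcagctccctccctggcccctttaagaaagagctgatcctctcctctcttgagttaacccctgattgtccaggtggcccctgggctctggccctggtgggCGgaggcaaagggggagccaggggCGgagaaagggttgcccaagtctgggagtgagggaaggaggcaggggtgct
EPHA2: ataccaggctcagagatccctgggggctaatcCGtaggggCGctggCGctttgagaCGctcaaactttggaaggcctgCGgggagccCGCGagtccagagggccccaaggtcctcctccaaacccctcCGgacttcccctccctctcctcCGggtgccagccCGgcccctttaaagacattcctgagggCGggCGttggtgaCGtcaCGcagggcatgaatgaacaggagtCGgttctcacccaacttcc
EGFR: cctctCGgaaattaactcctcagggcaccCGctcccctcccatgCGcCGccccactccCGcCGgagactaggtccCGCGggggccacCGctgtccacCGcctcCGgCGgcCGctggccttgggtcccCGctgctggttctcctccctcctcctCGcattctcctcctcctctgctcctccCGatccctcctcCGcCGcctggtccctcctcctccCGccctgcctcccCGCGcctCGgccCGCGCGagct
EPHB6: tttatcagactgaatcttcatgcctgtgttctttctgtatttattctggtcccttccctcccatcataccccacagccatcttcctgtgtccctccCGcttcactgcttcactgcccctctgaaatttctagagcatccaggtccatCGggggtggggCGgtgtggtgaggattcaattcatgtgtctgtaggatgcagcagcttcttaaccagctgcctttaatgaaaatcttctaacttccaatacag
FGFR2: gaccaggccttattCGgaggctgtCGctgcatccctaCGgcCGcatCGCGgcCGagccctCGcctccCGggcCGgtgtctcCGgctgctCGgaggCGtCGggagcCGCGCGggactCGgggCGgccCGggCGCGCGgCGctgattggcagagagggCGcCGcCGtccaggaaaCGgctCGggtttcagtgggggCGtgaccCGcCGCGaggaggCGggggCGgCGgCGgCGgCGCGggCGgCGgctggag
ROR2: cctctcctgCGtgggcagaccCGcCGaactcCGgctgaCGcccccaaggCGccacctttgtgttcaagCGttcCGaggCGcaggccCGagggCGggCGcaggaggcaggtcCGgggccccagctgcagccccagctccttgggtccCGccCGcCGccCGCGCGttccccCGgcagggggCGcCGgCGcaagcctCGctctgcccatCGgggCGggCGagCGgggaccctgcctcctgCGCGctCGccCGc

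The AXL stretch held 4 CpG, a ratio of observed to expected CpG of 0.155, and AXL was the highest receptor tyrosine kinase on both scales. EPHA2 held 15 CpG (ratio 0.604) and EGFR 25 CpG (0.881). Of the silent receptors, FGFR2 held 42 CpG (1.12) and ROR2 32 CpG (0.848), while EPHB6 held 3 (0.217). Counting a ratio of at least 0.6 as CpG-rich, 20 of the 24 expressed receptors with a listed promoter (83.3%), 8 of 14 intermediate ones (57.1%) and 6 of 8 silent ones (75%) were CpG-rich, against 47.4% of all 27305 promoters in the table. With the limit at 0.75 the shares were 54.2%, 28.6% and 50%. No difference between the classes was tested, since 8 silent genes are few. The GC box letters GGGCGG, searched on both strands, were present in all 6 stretches and in 42.3% of all promoters of that length, and the TATA letters TATAAA were in none of the 6 and in 11.1% of all. A match is a description of the letters only. AXL has 2 listed starts, EGFR 2 and FGFR2 5, and the first listed need not be the one used in these cells.

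Receptors for cytokines, TGF-beta, WNT and NOTCH ligands were expressed in 43 of 54 cases (79.6%), with 4 intermediate and 7 silent and a median of 21.7 CPM. NOTCH2 at 247, 260.5 and 261 CPM and TGFBR2, the type II receptor of TGF-beta, at 238, 239.6 and 247 CPM led by CPM. IL6ST, the signal chain shared by the IL-6 family, had 201 ± 4.46 CPM and OSMR, the oncostatin M receptor, 145 ± 6.16 CPM. The WNT co-receptor genes LRP5 at 193 ± 4.07 CPM and LRP6 at 127 ± 3.23 CPM were expressed together with FZD6 at 144 ± 1.45 CPM. The death receptor gene TNFRSF10B, for the ligand TRAIL, had 148 ± 5.18 CPM. The 7 silent genes included 4 chemokine receptors. CXCR4, the CXCL12 receptor, had 3, 0 and 2 counts, and CXCR2 and ACKR3 had 3 or fewer counts in every library. SMO, the signal transducer of the Hedgehog pathway, had 1, 1 and 1 counts, and its inhibitory receptor gene PTCH1 was expressed at 11.4 ± 0.78 CPM.

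Of 25 cadherin and catenin genes, 9 were expressed, 8 intermediate and 8 silent. The highest cadherin genes, by CPM and per length, were not CDH1 or CDH2. CDH11, a mesenchymal cadherin of bone and stroma, had 168, 173 and 184 CPM, and CDH4, the retinal cadherin, had 92.0, 93.8 and 91.3 CPM. CDH2, which encodes N-cadherin and is a usual mark of mesenchymal transition, was intermediate at 0.508, 0.264 and 0.284 CPM. CDH3, or P-cadherin, was expressed at 4.82 ± 0.181 CPM. The genes of the cytoplasmic partners were expressed, with CTNNA1, alpha-catenin, at 739 ± 9.99 CPM, CTNNB1, beta-catenin, at 484 ± 2.05 CPM and JUP, plakoglobin, at 119.7 ± 9.78 CPM. CTNND1, p120-catenin, read only 6.39, 5.91 and 5.88 CPM. A read-through gene that joins it to its neighbour, TMX2-CTNND1, is also in the files with 1 count in all, and TMX2 itself had 112 ± 2.46 CPM. Of the annotated exon bases of CTNND1, 5.84% are shared with other genes. How reads in shared exons were counted is not given in the sources used here, and its part in the low value was not tested.

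Junction genes were split member by member. Of 41 tight junction and desmosome genes, 20 were expressed, 10 intermediate and 11 silent, a median of 1.07 CPM. The desmosomal genes DSG2 at 184 ± 5.41 CPM, DSP at 105 ± 1.38 CPM and PKP2 at 82.1 ± 0.0725 CPM and the scaffold gene TJP1 at 166 ± 0.88 CPM were all above 80 CPM. DSG1, DSG3, DSG4, DSC1 and DSC3, members used in stratified epithelia, were silent with at most 2 counts in any library. Of the claudins that give the claudin-low kind its name, CLDN4 at 19.4, 21.1 and 21.6 CPM and CLDN7 at 6.33, 5.76 and 6.64 CPM were expressed, and CLDN3 stood near the threshold at 1.13, 1.53 and 1.07 CPM. Per length CLDN12 at 92.3 ± 3.12 TPM and CLDN1 at 21.4 ± 0.47 TPM lay above CLDN4 at 15.3 ± 0.95 TPM. OCLN, occludin, had 15.8 ± 0.278 CPM.

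**Figure D3:**
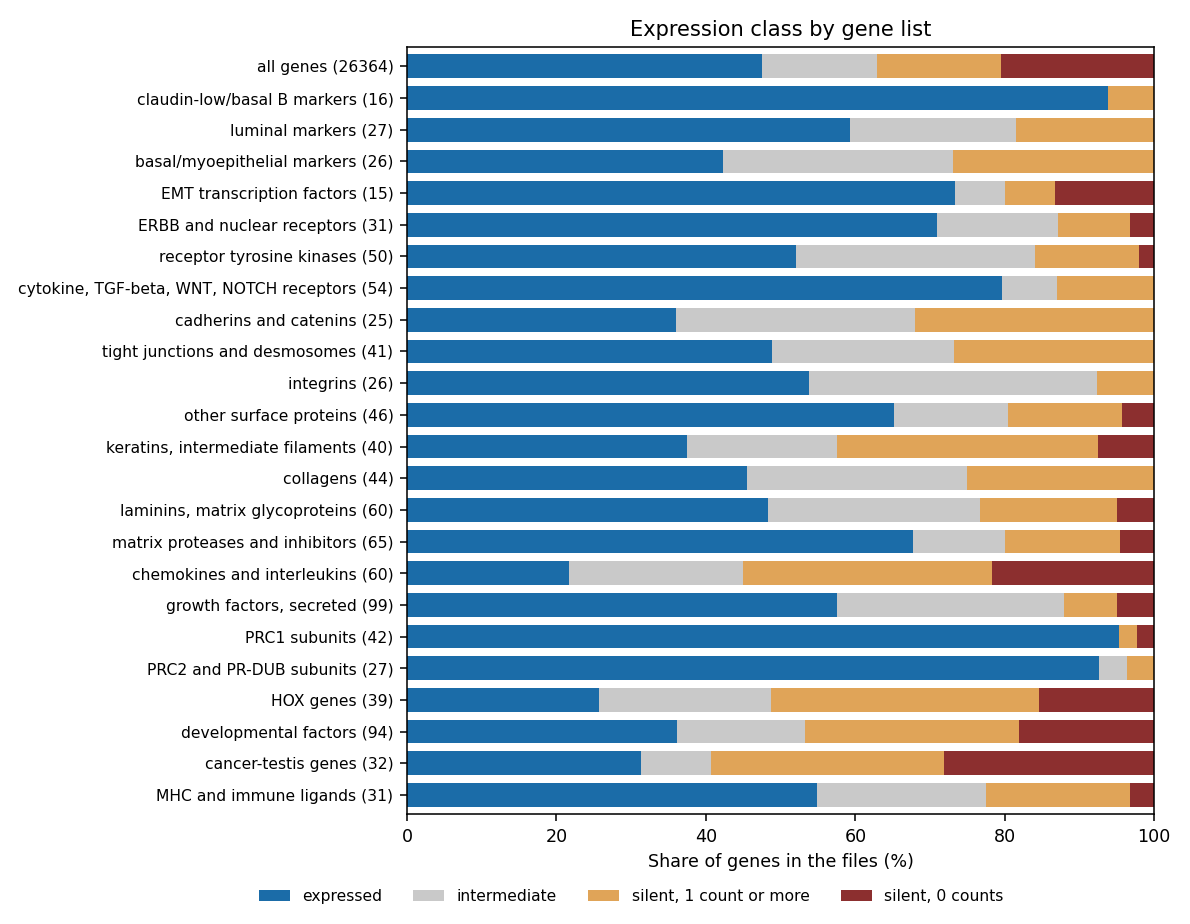
Bars show, for all genes and for 23 gene lists (number of members in the files in brackets), the percent that were expressed, intermediate, silent with at least 1 count, and silent with 0 counts in all 3 libraries. Subunits of PRC1 and PRC2 and markers of claudin-low cells were nearly all expressed, while chemokines, HOX genes and cancer-testis genes were mostly not.

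Integrin genes, the receptors for matrix, gave 14 expressed, 10 intermediate and 2 silent of 26. ITGB1, the common beta chain, had 623, 591 and 624 CPM and the laminin-binding alpha chain ITGA3 505, 533 and 532 CPM. ITGA6 and ITGB4, the hemidesmosome pair, were given above, and per length ITGB1 exceeded ITGB4 7.39 to 8.88 times. The collagen receptor chain ITGA2 at 162 ± 10.8 CPM, ITGAV at 153 ± 5.16 CPM and ITGA5, the fibronectin receptor chain, at 54.3 ± 0.937 CPM were also expressed. The leukocyte integrin chains ITGAL at 0.121 ± 0.0291 CPM and ITGAM at 0.0901 ± 0.0272 CPM were low. Their beta chain ITGB2 was expressed at 5.64, 6.32 and 7.11 CPM, and ITGAE, another leukocyte chain, stood above ITGB2 by CPM. Other surface genes were expressed in 30 of 46 cases, the highest by CPM being NT5E, the ectoenzyme CD73, at 1096, 1111 and 1144 CPM, BSG at 696 ± 11.2 CPM and CD59, a complement inhibitor, at 546 ± 12.7 CPM. Per length NT5E stood 4.66 ± 0.184 times above CD44. ALCAM had 289 ± 1.73 CPM, while the endothelial-type adhesion genes VCAM1 and SELP had 0 counts in all libraries and THY1 had 2, 1 and 1 counts.

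Of 40 keratin and other intermediate filament genes, 15 were expressed, 8 intermediate and 17 silent. KRT18 and its pairing partner KRT8 were at like levels by CPM, as given above. Per length KRT18 stood 2.22 to 2.25 times above KRT8, a ratio set mainly by their annotated exon lengths of 2009 and 4581 bases. KRT80 was expressed at 74.7 ± 3.58 CPM, KRT81, a hair keratin, at 7.1 ± 0.621 CPM and KRT15 at 2.27 ± 0.157 CPM. NES, the filament of progenitor cells, had 48.1 ± 1.3 CPM. The nuclear lamins were all high, LMNA at 545 ± 17.7 CPM, LMNB2 at 488 ± 11.9 CPM and LMNB1 at 209 ± 1.19 CPM. KRT2, KRT6C and the neuronal NEFM had 0 counts in all 3 libraries.

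Collagen genes were expressed in 20 of 44 cases, with 13 intermediate and 11 silent. COL13A1, a transmembrane collagen, had 204, 203 and 206 CPM, and COL12A1, which decorates fibrils, had 124, 126 and 128 CPM. Per length COL13A1 stood 6.05 ± 0.0535 times above COL12A1. Basement membrane chains COL4A1 at 37.7 ± 1.11 CPM and COL4A2 at 87.0 ± 0.758 CPM and the microfibrillar chains COL6A1 at 82.7 ± 3.21 CPM and COL6A2 at 40.1 ± 1.69 CPM were expressed in pairs. The fibrillar collagen of scar and bone was not paired. COL1A1 was expressed at 8.36, 8.2 and 9.45 CPM, while its partner chain COL1A2 had 16, 0 and 0 counts, all in replicate 1, and COL3A1 was intermediate at 0.533 ± 0.125 CPM. COL6A3, the partner of the COL6A1 and COL6A2 chains, was at 1.36 ± 0.213 CPM.

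Of 60 laminin and matrix glycoprotein genes, 29 were expressed, 17 intermediate and 14 silent. CYR61 and CTGF, both targets of the YAP pathway and both matricellular, had 2294, 2396 and 2411 and 376, 387 and 388 CPM. The laminin chains LAMA5 at 444, 500.3 and 499.8 CPM, LAMB3, LAMC1 at 241 ± 9.49 CPM and LAMB2 at 236 ± 8.85 CPM were expressed. Of the laminin-332 chains, LAMB3 at 321 ± 10.2 TPM and LAMA3 at 0.501 ± 0.0379 TPM were at unlike levels per length. FN1, fibronectin, had 218, 225 and 232 CPM, THBS1 274 ± 2.68 CPM and TNC, tenascin-C, 105, 107 and 112 CPM. SPARC was expressed at 26.6 ± 0.22 CPM, but POSTN (2, 1 and 0 counts), LUM (1, 1 and 0 counts) and SPP1 (0, 1 and 1 counts), which encodes osteopontin, were silent, and DCN, MFAP5 and IBSP had 0 counts in all 3 libraries.

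Matrix proteases and their inhibitors were expressed in 44 of 65 cases (67.7%), with 8 intermediate and 13 silent. The plasminogen activation genes were expressed, with PLAU, urokinase, at 207 ± 12.6 CPM, its receptor PLAUR at 83.2 ± 1.49 CPM and PLAT at 119 ± 10.0 CPM. F3, tissue factor, had 705, 687 and 677 CPM, the highest of the list by CPM and per length. Among the matrix metalloproteinases the membrane-bound MMP14 was expressed at 93.5, 94.7 and 96.1 CPM. The secreted collagenases and gelatinases were not. MMP1 was intermediate at 0.567, 0.676 and 0.664 CPM, MMP9 had 2, 2 and 1 counts and MMP2 0, 1 and 2 counts, and MMP7, MMP12 and MMP26 had 0 counts in all 3 libraries. The inhibitor TIMP1 exceeded MMP14 by 1.48 to 1.54 times per length. TIMP2 had 252 ± 7.49 CPM and TIMP3 115 ± 7.19 CPM. The collagen crosslinking enzyme genes LOXL2 at 148 ± 2.87 TPM and PLOD2 at 124 ± 6.37 TPM lay above LOX at 15.5 ± 0.445 TPM per length, and the sheddase genes ADAM9 at 351 ± 0.953 CPM and ADAM10 at 283 ± 7.92 CPM were among the highest by CPM.

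Chemokine and interleukin genes were mostly silent. Of 60, 13 were expressed (21.7%), 14 intermediate and 33 silent (55.0%), of which 13 had 0 counts, with a median of 0.0349 CPM. LIF had 115, 118 and 121 CPM, CCL2, a monocyte attractant, 112, 109.8 and 112 CPM, CSF1, the macrophage growth factor, 94.9, 106 and 113 CPM, IL18 38.8, 39.3 and 39.6 CPM and IL11 31.0, 31.9 and 30.8 CPM. CXCL8 was expressed near the threshold at 2.21, 2.03 and 1.83 CPM, and CXCL1 at 0.455 ± 0.065 CPM and CXCL2 at 1.05 ± 0.336 CPM were intermediate. IL6 had 2, 11 and 11 counts, with replicate 1 the low one. CXCL12 (1, 0 and 0 counts), CCL5 (1, 0 and 0 counts) and TNF (1, 0 and 1 counts) were silent. MIF also read 0 in all libraries, but 55.1% of its annotated exon bases are shared with other genes, MIF-AS1 among them, so that its value is uncertain.

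Of 99 growth factor and other secreted genes, 57 were expressed (57.6%), 30 intermediate and 12 silent, with a median of 3.47 CPM. The insulin-like growth factor binding protein IGFBP4 had 1075, 1117 and 1153 CPM and stood 58.4 to 66.6 times above IGFBP3 per length. LGALS1, galectin-1, had 506, 523 and 509 CPM and, being short, 2832 ± 57.2 TPM. FGF5 at 205, 199.7 and 202 CPM and the WNT inhibitor DKK1 at 198, 194 and 186 CPM followed. Ligands of EGFR were expressed selectively. EREG had 152, 152 and 158 CPM, HBEGF 96.9, 102 and 100.2 CPM and TGFA 28.1, 29.3 and 31.6 CPM, whereas AREG at 0.388, 0.558 and 0.60 CPM and BTC at 0.597, 0.823 and 0.664 CPM were intermediate and EGF stood at 1.94 ± 0.134 CPM. GAS6 at 91.8, 95.6 and 91.6 CPM and PROS1 at 50.5, 49.8 and 50.9 CPM, the ligands of AXL and its family, were both expressed. HGF, the ligand of MET, had 0, 1 and 4 counts. TGFB1 at 55.1 ± 1.51 TPM and TGFB2 at 54.5 ± 1.85 TPM were at like levels, with a ratio of 1.004 to 1.018 in the 3 libraries. Of the annotated exon bases of TGFB2, 27.1% are shared with another gene on its strand, so this ratio is uncertain. WNT5A, a ligand of ROR1, had 28.2 ± 1.33 CPM. BMP7, FGF10, LCN2, PI3 and SFRP2 had 0 counts in all libraries.

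Genes of PRC1 subunits and partners were expressed in 40 of 42 cases (95.2%), beside 61.3% of protein-coding genes, with a median of 43.0 CPM. In each library 13 reached 100 CPM, as did 9.41% of all genes. By CPM the partner genes SKP1, DCAF7, HDAC2, USP7 and TFDP1 led the list, ahead of every PCGF, RING, CBX and PHC gene. Each PRC1 complex holds 1 of 6 PCGF proteins. PCGF5 had 138, 138 and 137 CPM in the 3 libraries, PCGF3 62.6, 60.9 and 59.1 CPM, PCGF6 39.1, 40.1 and 38.4 CPM, PCGF2 21.7, 23.5 and 22.1 CPM, PCGF1 13.6, 13.0 and 12.5 CPM and BMI1 (PCGF4) 4.39, 4.11 and 3.38 CPM. Per length the order was PCGF5 at 58.5 ± 0.129 TPM, PCGF6 at 54.4 ± 1.13 TPM, PCGF3 at 29.4 ± 0.645 TPM, PCGF1 at 22.5 ± 0.804 TPM, PCGF2 at 19.8 ± 0.857 TPM and BMI1 at 3.57 ± 0.449 TPM. No neighbours in this order overlapped in their library values, which leaves out any error of the exon lengths. PCGF2, which encodes MEL-18, and BMI1 are the paralogs that define canonical PRC1, and PCGF2 exceeded BMI1 by 4.84 to 6.38 times. BMI1 shares exons with the read-through gene COMMD3-BMI1, which had 1 count in all while COMMD3 had 14.3 ± 0.269 CPM. Of the exon bases of BMI1 29.2% are shared with another gene on its strand, and of those of PCGF2 45.03% with genes on the opposite strand, CISD3 among them. The effect of the counting of shared exons was not tested, so both levels, this ratio and the place of PCGF2 next to PCGF1 are uncertain.

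The catalytic E3 subunit genes RING1 and RNF2 were both expressed, RING1 at 73.5 ± 4.26 TPM and RNF2 at 31.2 ± 1.5 TPM, so that RNF2 reached 0.407 to 0.444 of RING1. CBX proteins read the PRC2 mark in canonical complexes. CBX6 had 94.9 ± 1.8 TPM, CBX2 23.2 ± 0.749 TPM, CBX7 11.9 ± 0.286 TPM and CBX8 10.6 ± 0.402 TPM. Among the PHC genes, whose proteins link complexes together, PHC2 led at 131 ± 7.18 TPM over PHC3 at 17.8 ± 0.238 TPM and PHC1 at 9.13 ± 0.832 TPM. In the variant complexes, RYBP had 62.7 ± 2.31 CPM, YAF2 16.9 ± 0.76 CPM, KDM2B, the CpG island reader, 59.4 ± 2.42 CPM and BCOR 44.4 ± 0.894 CPM. The 2 silent members were AUTS2, a partner of PCGF3 and PCGF5 complexes, with 0 counts in all libraries, and SCML4 with 0, 0 and 1 counts.

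**Figure D4:**
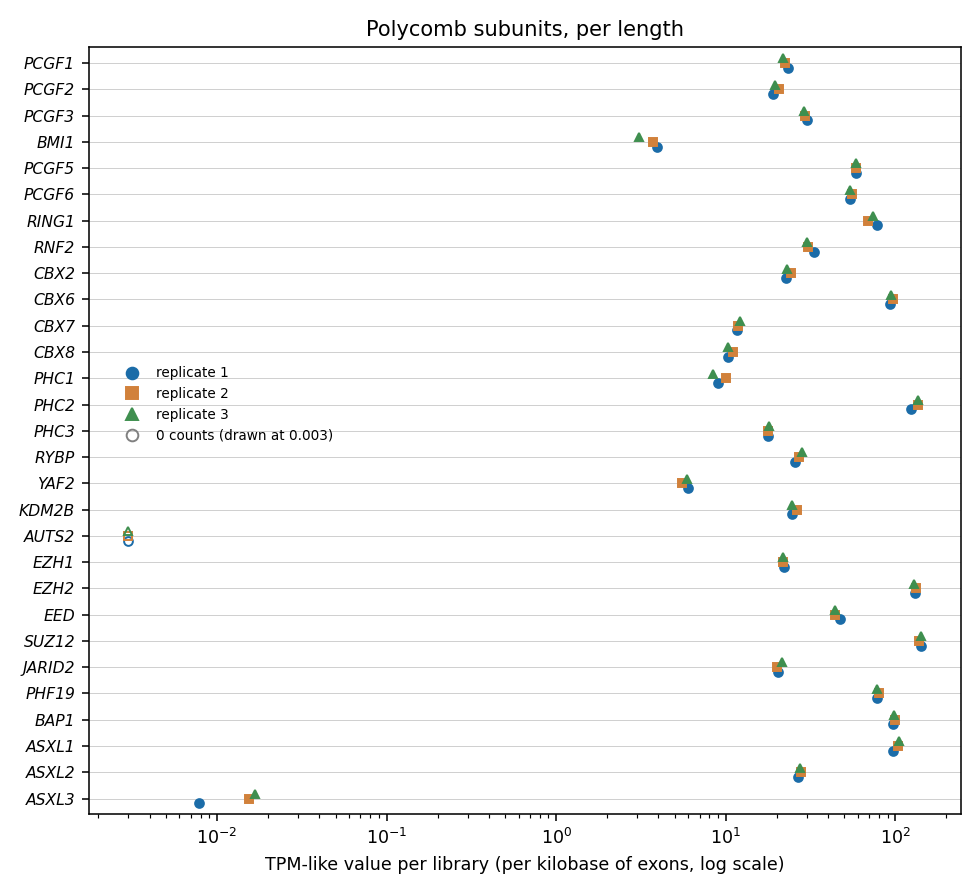
Each row is a Polycomb gene with its TPM-like value (per kilobase of exons, log scale) in replicates 1, 2 and 3; open symbols are 0 counts, drawn at 0.003. BMI1 lies to the left of the other PCGF genes in every library, and AUTS2 and ASXL3 lie apart from all others.

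PRC2 core genes were all expressed. EZH2, the methyltransferase of dividing cells, had 131, 130.2 and 127 CPM, SUZ12 208, 201 and 205 CPM and EED 55.7, 52.0 and 51.1 CPM, and EZH2 exceeded its paralog EZH1 by 5.90 to 6.04 times per length. SUZ12 stood 3.13 ± 0.113 times above EED. Of the accessory genes, PHF19 at 121 ± 2.26 CPM, MTF2 at 91.6 ± 3.33 CPM and PHF1 at 47.0 ± 2.15 CPM, which bind CpG-rich DNA, and JARID2 at 39.4 ± 1.25 CPM and AEBP2 at 45.8 ± 0.847 CPM were all expressed. The H2A deubiquitinase complex PR-DUB had BAP1 at 125 ± 1.93 CPM with ASXL1 at 262 ± 10.1 CPM and ASXL2 at 114 ± 1.63 CPM. In this list of 27 genes, 25 were expressed (92.6%), beside 61.3% of protein-coding genes. SFMBT2 was intermediate at 5, 1 and 2 counts and ASXL3 silent at 1, 2 and 2 counts.

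Of 39 HOX genes, which are classical Polycomb targets, 10 were expressed (25.6%), 9 intermediate and 20 silent, and none reached 12 CPM. HOXB9 was the highest by CPM and per length with 11.3, 11.3 and 11.9 CPM, and HOXD4 had 5.67, 4.88 and 5.75 CPM. Of 11 HOXA genes 0 were expressed and 10 were silent, and the highest, HOXA13, had 5, 10 and 4 counts. In HOXB 2 of 10 genes, in HOXC 5 of 9 and in HOXD 3 of 9 were expressed. Some HOX genes share exon bases with other annotated genes, HOXD3 over 88.9% and HOXD4 over 80.5% of its bases, almost all on the same strand, so single values within a cluster are uncertain.

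Of 94 other developmental transcription factor genes, 34 were expressed (36.2%), 16 intermediate and 44 silent (46.8%), of which 17 had 0 counts, and 1 reached 100 CPM. That was RUNX1, a factor of blood and epithelial development, at 143, 149 and 146 CPM. SOX9 had 79.8, 80.3 and 83.1 CPM and PITX1, a hindlimb factor, 54.7, 54.1 and 53.7 CPM. Factors of foregut and lung were also found, with FOXA2 at 72.5, 78.3 and 74.4 CPM and NKX2-1, which marks thyroid and lung, at 44.3, 45.6 and 46.0 CPM. Per length FOXA2 at 89.2 ± 3.8 TPM lay above the breast factor FOXA1 at 10.9 ± 0.256 TPM. GATA2 at 27.2 ± 1.37 TPM likewise lay above GATA3 at 6.7 ± 0.579 TPM. The neural factors OLIG2, NEUROG1 and OTX2, the gut factors CDX2 and HNF4A and the muscle factor MYF5 had 0 counts in all 3 libraries.

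The CDKN2A neighbourhood on the short arm of chromosome 9 was divided. CDKN2B and MTAP had 0 counts in all 3 libraries, CDKN2A had 1, 0 and 0 counts, and IFNE, IFNB1 and KLHL9 were also at 0. Further along the list PLIN2 had 66.1, 62.0 and 64.4 CPM, MLLT3 23.9, 25.9 and 25.4 CPM and FOCAD 4.27, 5.05 and 4.55 CPM. Of the 12 genes 3 were expressed and 9 silent. MTAP encodes an enzyme of methionine salvage, and CDKN2A and CDKN2B encode inhibitors of the cell cycle kinases. All 32 genes of the glycolysis and hypoxia list were expressed, beside 61.3% of protein-coding genes. Among 34 cell cycle and tumour suppressor genes 29 were expressed (85.3%). MKI67, a marker of dividing cells, had 735, 749 and 744 CPM and CCND1 649, 662 and 652 CPM, while CCND2 had 0 counts. Per length CCND1 stood 9.96 ± 0.446 times above CCND3, and CDK4 5.13 ± 0.189 times above CDK6. The CDK4 value is uncertain, since 51.9% of its exon bases are shared with TSPAN31 on the opposite strand. RB1, the brake on entry into the cell cycle, was expressed at 192 ± 2.46 CPM.

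Of 32 genes in a list of cancer-testis genes, most of them normally active in the germ line, 10 were expressed, 3 intermediate and 19 silent, of which 9 had 0 counts. The 10 include MAGED2 at 56.4 ± 2.28 CPM and MAGED1 at 29.7 ± 1.45 CPM, MAGE family genes that normal tissues also express widely. MAGEC1 had 121, 121 and 124 CPM, MAGEA3 117, 119 and 114 CPM, MAGEA6 115, 114 and 116 CPM and MAGEB2 48.0, 46.0 and 47.2 CPM. MAGEA3 and MAGEA6 are near-identical copies and their reads may be divided between them, so each value is uncertain. CTAG1B and GAGE1 read 0, which is uncertain for the same reason. PRAME had 1, 0 and 1 counts. Of 31 genes for antigen presentation and immune ligands, 17 were expressed, with B2M at 445, 456 and 450.0 CPM and CD274, the ligand PD-L1, at 45.6, 46.4 and 43.9 CPM. The class II side was silent or nearly so, with CIITA, its regulator, at 2, 0 and 1 counts and HLA-DRA at 1, 5 and 2 counts.

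Markers of cells that a culture could hold besides the line were read in the same way. Of 21 leukocyte genes only CD68 was expressed, at 53.9, 54.0 and 52.6 CPM, and all of its annotated exon bases are shared with other genes, while PTPRC, the pan-leukocyte gene CD45, was intermediate at 0.478, 0.676 and 0.727 CPM. The leukocyte list summed to 55.7 to 56.9 CPM in the 3 libraries. Of 11 endothelial genes ESAM at 47.6 ± 1.88 CPM and EGFL7 at 23.4 ± 1.04 CPM were expressed, and the defining genes CDH5 at 0.936 ± 0.219 CPM, PECAM1 at 0.937 ± 0.172 CPM and VWF at 0.282 ± 0.174 CPM were intermediate. This list summed to 71.5 to 76.6 CPM. Of 16 fibroblast and adipocyte genes, 4 were expressed, COL1A1, PDGFRB, PDGFRA and FABP4 at 2.92 ± 0.104 CPM, while DCN, ADIPOQ and LEP were at 0, with a sum of 24.0 to 24.8 CPM. Of 14 neural and melanocyte genes 5 were expressed. The highest by CPM were TUBB3 at 102 ± 3.22 CPM, MITF at 77.3 ± 1.25 CPM and MBP at 67.8 ± 2.56 CPM. TYR and S100B were at 0, and the list summed to 249.9 to 252 CPM. Of the annotated exon bases of TUBB3, 48.1% are shared with another gene on its strand, so its value and this sum are uncertain. None of 15 liver, gut and muscle genes was expressed, and they summed to 0.657 to 1.41 CPM. Whether any of these transcripts came from other cells was not tested.

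The spread between the 3 libraries was small. The median coefficient of variation (CV) of expressed genes was 3.38%, and 2.02% for genes at 100 CPM or more. Between the highest and the lowest library, 95 of the 12538 expressed genes differed more than 1.5-fold and 1 more than 2-fold. Counting error alone is part of this, so each gene with at least 30 counts in all was tested against the shares of the library totals (chi-square test with 2 degrees of freedom, Benjamini-Hochberg adjusted over 14363 genes). At an adjusted p below 0.05, 1067 genes (7.43%) varied by more than counting error, 392 of them highest in replicate 1, 276 in replicate 2 and 399 in replicate 3. The test compares libraries, not conditions, and it finds ever smaller differences as counts grow. Without replicate 1 the number was 267, without replicate 3 it was 622 and without replicate 2 it was 907. In pairs, the chi-square per degree of freedom was 1.8 for replicates 2 and 3, 2.5 for 1 and 2 and 2.96 for 1 and 3, so each pair differed by more than sampling noise.

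Ribosomal protein genes, whose counts are high, were called in 63 of 75 cases, with a median CV of 3.00%. RPS24 had 1449, 1263 and 1274 CPM and RPL37 916, 811 and 786 CPM in replicates 1, 2 and 3, and each was highest in replicate 1. The nucleolar genes NPM1 at 3884, 3581 and 3638 CPM and NCL at 1775, 1630.0 and 1618 CPM, PTMA at 1310.2, 1192 and 1205 CPM and TAF15 at 433, 359.6 and 374 CPM were likewise highest in replicate 1. AHNAK at 2917, 3095 and 3161 CPM was lowest there. These, with RPS2 and HSPA8, are 9 of the 10 genes with the highest index of dispersion. Among the lists, 0 of 25 collagen genes, 0 of 25 tight junction and desmosome genes and 0 of 40 developmental factors tested were called, while 7 of 18 integrin genes, 8 of 24 immediate early genes and 6 of 15 claudin-low markers were, beside 7.43% of all genes tested. Since more counts let smaller differences pass, these counts of calls do not set one list apart from another. CSF1 ranged from 94.9 to 113 CPM (adjusted p = 1.41e-09, chi-square test) and LAMA5 from 444 to 500.3 CPM (adjusted p = 7.51e-30), both lowest in replicate 1. PCGF2 (adjusted p = 0.6) and BMI1 (adjusted p = 0.386) did not pass the same test. Class calls near the threshold turn on this spread. MMP24 with 1.02, 1.12 and 1.04 CPM, LHX9 with 1.02, 1.44 and 1.26 CPM and SSX1 with 1.73, 1.23 and 1.04 CPM were just inside the expressed class, and ANGPT1 with 1.25, 0.999 and 1.52 CPM, PLIN4 with 0.985, 1.35 and 1.14 CPM and DDR2 with 1.16, 1.12 and 0.98 CPM just outside it.

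**Figure D5:**
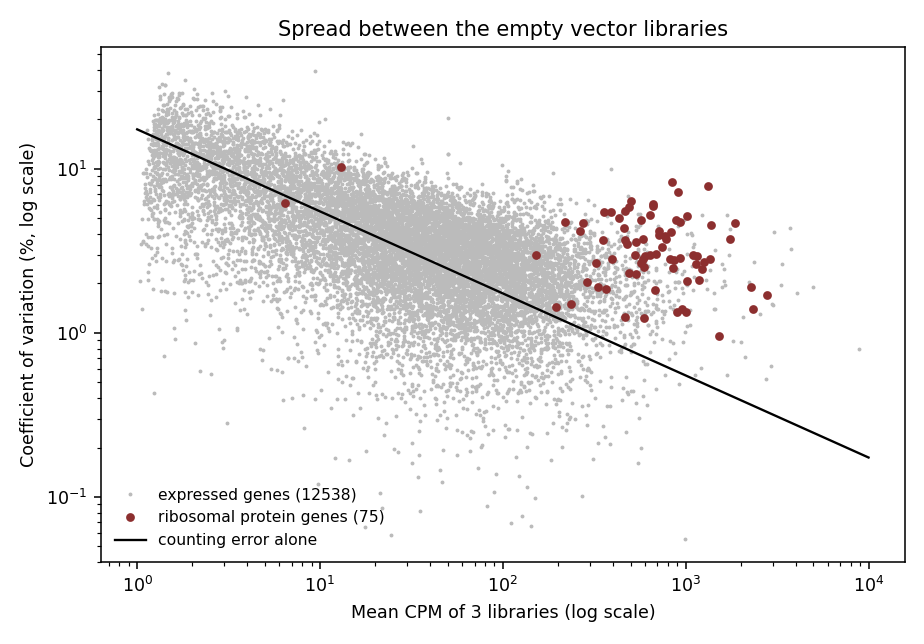
Coefficient of variation between the 3 libraries in percent (log scale) against mean CPM (log scale) for 12538 expressed genes (grey) and 75 ribosomal protein genes (dark red), with the line that counting error alone would give at the mean library total. Ribosomal protein genes lie above the line at high counts, almost all below 10%.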

How the data were processed

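Poly(A) RNA was sequenced from 3 cultures of MDA-MB-231 with the empty vector with a TruSeq stranded mRNA kit, as the labels' protocols say. The authors deposited raw whole-number counts for each gene symbol, obtained with CASAVA 1.8, STAR 2.5.3a and featureCounts of Subread 1.5.3 on hg19, per the submitters' processing notes. Not given in the sources used here are the annotation, the strand setting and how reads in shared exons or with several mapping places were treated. Every file listed 26364 genes, without unnamed or total lines.

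From the deposited counts, CPM was computed over the library total, with totals from 31643722 to 34033059. TMM factors (edgeR 4.0.16) ran from 0.991 to 1.01, and edgeR's common dispersion was equal to a coefficient of variation of 2.44% between cultures. DESeq2 1.42.0 gave the alternative size factors. No count model tested a contrast. Exon lengths came from GENCODE 29 and were found for 24466 of 26364 symbols, 692 of them through another symbol, and lengths only were taken since its build is not hg19. Promoters came from the RefSeq table of GRCh38.p14. Among protein-coding genes, a promoter was found for 83.0% of expressed, 75.1% of intermediate and 75.5% of silent genes, so the comparison of CpG content over all classes is void and only receptor tyrosine kinases, with 87.5% or more in each class, are described. CpG observed over expected is the number of CpG times the length over the product of the C and G counts.

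The 34 gene lists hold 1196 distinct symbols, of which 1188 are in the files: 679 were expressed, 216 intermediate and 293 silent, 78 of these with 0 counts. The genes and lists were chosen with earlier results of these data known. Named genes were the 6 markers, the 30 highest by CPM, PCGF2, BMI1, list members (highest and undetected first), the 10 with the highest index of dispersion at 5 CPM or more, and the 3 list members nearest each side of 1 CPM. Some genes within these rules are not reported here. COMMD3 and TMX2 were named after their values were seen. Spread between libraries was tested with chi-square tests in scipy 1.17.1, tried on simulated counts first. Alternatives were TMM and DESeq2 scaling, other thresholds, mean in place of every library, thinning to the smallest library, the removal of each library, other minimum counts and other CpG settings.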

Additional observations from a re-analysis of the deposited data

How the results depend on the processing

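The 748 recomputed counts of expressed or silent list members stayed within 1.5 times the reported count in 717 cases. The mean CPM of 38 named genes stayed within 1 SD in all 228 cases. For the cases that leave out a library this outcome was fixed, since dropping 1 of 3 values cannot move their mean by 1 SD. Nothing is concluded from those cases. TMM and DESeq2 scaling and thinning to the smallest library moved none of the list counts. For the levels their outcome was nearly fixed as well. Scaling shifts the libraries against each other and leaves the mean of the 3 almost as it was, and thinning keeps the expected CPM. Nothing is concluded for levels from these settings either. Most of the 31 that moved are counts of silent members with a limit of 0.05 CPM, where 1 or 2 counts decide: 0 claudin-low and basal B markers, 2 luminal, 2 basal, 1 ERBB or nuclear receptor, 3 receptor tyrosine kinases, 3 cytokine, TGF-beta, WNT and NOTCH receptors, 1 cadherin or catenin, 6 junction genes, 0 integrins, 10 keratins or filaments, 1 collagen, 6 laminins or glycoproteins, 8 proteases, 0 PRC2 and PR-DUB, 2 immune surface, 5 leukocyte, 5 fibroblast or adipocyte, 2 neural or melanocyte and 0 ribosomal genes were then silent. With a limit of 0.2 CPM, 11 basal, 6 integrin, 20 secreted and 2 PRC2 and PR-DUB genes were silent, and with the mean in place of every library 4 integrin, 19 secreted and 2 PRC2 and PR-DUB genes. Leaving out a library gave 1 to 2 silent PRC2 and PR-DUB genes, 2 without replicate 1. Expressed at 2 CPM were 8 chemokines or interleukins and 3 neural or melanocyte genes, and at 0.5 CPM 2 leukocyte and 5 endothelial genes. Of all genes, 11720 were expressed at 2 CPM and 13336 at 0.5 CPM.

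Of the 30 genes highest by CPM, 16 were among the 30 highest per length. Leaving out a library gave 267 to 907 genes that varied between libraries. With CpG-rich set at 0.75, 54.2% of expressed, 28.6% of intermediate and 50% of silent receptor tyrosine kinases had such a promoter. With the most CpG-rich listed start, chosen after the data were seen, the shares were 91.7%, 64.3% and 75%. No paired analysis was possible because only 1 group was used and no result is a contrast between groups.

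Depth limits the low end. At 1 CPM a library gives 31.6 to 34.0 counts, and a gene below 0.1 CPM rests on 3 counts or fewer per library.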

Other observations

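Of 28 immediate early genes, which answer serum and growth factor signals, 24 were expressed (85.7%), beside 61.3% of protein-coding genes. DUSP4 at 414, 441 and 456 CPM and DUSP6 at 335, 343 and 355 CPM encode phosphatases that act on the ERK pathway, and IER3 had 108, 108 and 121 CPM. JUN had 129.8, 130.0 and 123 CPM and FOS 63.5, 55.6 and 55.7 CPM. EGR1 had 40.0, 37.3 and 36.2 CPM, while EGR2 was intermediate at 0.272 ± 0.0496 CPM, EGR3 (2, 3 and 3 counts) and EGR4 (0, 1 and 0 counts) were silent and DUSP2 had 0 counts in all 3 libraries.

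All 32 genes of glycolysis and the response to low oxygen were expressed, beside 61.3% of protein-coding genes, and they held 2.02% of the counts. LDHA per length, at 2649 ± 23.9 TPM, and LDHB, at 2123 ± 70.5 TPM, were both high. Of the exon bases of LDHB, 56.2% are shared with another gene on its strand, so its value is uncertain. The glucose transporter gene SLC2A1 had 224, 234 and 226 CPM, and CA9, a strong target of hypoxia-inducible factor, had 4.54, 4.55 and 6.04 CPM. All 16 stress and nuclear RNA genes were expressed, beside 47.6% of all genes. Among them were HSPA5, the chaperone of the endoplasmic reticulum, at 690.5, 691 and 704 CPM, NEAT1 at 414, 406 and 439.6 CPM and DDIT3 at 6.3, 6.26 and 6.26 CPM. HSPA1A at 2.87, 2.41 and 2.4 CPM and HSPA1B at 71.1, 68.1 and 66.9 CPM are near-identical copies, so each value is uncertain.

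Some low values stand apart from related genes. RPL21 had 1, 2 and 1 counts, the 1 silent ribosomal protein gene of 76, and RPS10 had 14.6, 12.4 and 12.3 CPM, against a list median of 652 CPM. RPL21 has near-identical copies, and RPS10 shares exons with the read-through gene RPS10-NUDT3, which had 0 counts. The cause of these low values was not tested. 

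The CDH1 counts belong to a small set of genes found in 1 library and at 0 in both others. With at least 5 counts in the 1 library, 3 genes were of this kind in replicate 1, 5 in replicate 2 and 2 in replicate 3. Those of replicate 1 were COL1A2 with 16 counts, CDH1 with 9 and the hemoglobin gene HBA2 with 9, a gene named after its values were seen. Those of replicate 2 had 5 to 7 counts each, TBX18 among them with 7, and the 2 of replicate 3 had 5 and 8. COL1A2, a fibroblast collagen, thus had 0.478 CPM in replicate 1. Other fibroblast genes were mixed in that library, with COL1A1 expressed, POSTN, LUM and THY1 each at 1 or 2 counts and DCN at 0. VIL1, an epithelial gene of the gut, had 1, 0 and 0 counts. The source of these reads was not tested.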
